A study of Mus musculus with 15 samples.

Results

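The 10 genes described here belong to the Nodal, Lefty and BMP signalling pathways, and they were chosen by name for their place in these pathways and not by a measured value. Nodal is the ligand and Tdgf1 its coreceptor, Lefty1 and Lefty2 are secreted antagonists of Nodal, Smad7 and Skil are inhibitors inside the cell, Bmp4 is a BMP ligand, and Id1, Id2 and Id3 are transcriptional targets of BMP signalling. For each gene, every CG of the gene span and of the 5 kb upstream of its start was taken, with GENCODE M21 coordinates on GRCm38 (mm10), and this stretch is called the locus. All 10 genes were found among 20807 autosomal protein-coding genes, and the 20804 of these with at least 10 CGs served as the comparison. The 10 loci held 3256 CGs.

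DNA came from the mouse embryonic stem cell line E14TG2a, grown on gelatin with LIF and serum, so that all libraries share 1 cell line and differ in assay, labeling and DNA input. The methods give 2 numbers of PCR cycles, and which library had which is not given in the sources used here. hmTOP-seq, which primes sequencing from an oligonucleotide tethered to glucosylated 5hmC, was carried out with 500, 50 and 5 ng of DNA in 2 technical replicates each. For each input, 2 libraries with K in the title were taken as the controls of the series design, which lacked the labeling by β-glucosyltransferase (BGT), and uTOP-seq, which reads unmodified CGs in the same way, was carried out with 300 ng in 3 replicates. The hmTOP-seq replicates are technical, so that p-values given below measure the spread between library preparations and not between cultures.

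Nodal is a ligand of the TGF-β family that signals through activin receptors, with Tdgf1 (Cripto) as coreceptor, to SMAD2 and SMAD3, which bind chromatin with FOXH1. It induces its own antagonists Lefty1 and Lefty2, whereas BMP4 signals through SMAD1, SMAD5 and SMAD9 to induce the Id genes, which encode inhibitors of basic helix-loop-helix factors. TET enzymes oxidise 5mC to 5hmC, and Lefty1 and Lefty2 have been described as genes that TET enzymes keep from being methylated in embryonic stem cells. A read of hmTOP-seq counts a labeled 5hmC near its start, and neither assay gives the percentage of modified molecules at a CG.

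Labeled libraries held between 14884939 and 32502791 reads and uTOP-seq libraries between 20120568 and 28412885 reads. The 6 controls held between 3409 and 10072 reads in all. Within the 10 loci, 0 reads were counted in both 5-ng controls, 1 and 0 in the 50-ng controls, and 5 and 1 in the 500-ng controls, against 8566 and 8202 reads in the labeled 500-ng libraries. Only the Smad7 locus with 3 control reads and the Id3 locus with 4 control reads had any, and the other 8 loci had 0. A count of 0 still allows 3 reads, and 3 reads are a larger share of any of the controls than the reads of these loci are of any labeled library. Shares of library reads therefore could not tell the controls from the labeled libraries at these loci. Replicates of the 5-ng input differed most: across the CGs of a locus, Pearson r between replicates ranged over the 10 loci from 0.607 to 0.892 for the 500-ng pair, from 0.225 to 0.69 for the 50-ng pair and from -0.016 to 0.388 for the 5-ng pair. These values are across CGs, which are not independent replicates. No molecular identifiers were used in removing duplicates, and all counting intervals cover counting error only.

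The following sequences hold CGs that were first or second by 500-ng reads in the loci the results turn on, each with 14 bases on both sides, read 5′ to 3′ on the strand of the gene from GRCm38, with the CG in capitals. They are shown so that single positions can be referred to later. In Lefty1 and Lefty2 the leading CGs lay in coding exons, in Nodal upstream of the gene, in Skil in an intron, in Bmp4 in a coding exon, and in Id2 the CG that came second lay just before the gene start.
Lefty1, chr1:180937644-180937673, plus strand, coding exon: tgactgaaggcaccCGatgctgtcgccagg
Lefty1, chr1:180937800-180937829, plus strand, coding exon: catttctggggcctCGgcagtgtgtcgcct
Lefty2, chr1:180893337-180893366, plus strand, coding exon: gccatccctacccaCGtgaggtcccagtat
Lefty2, chr1:180893389-180893418, plus strand, coding exon: acgctgaccgctccCGaggcaagaggttca
Nodal, chr10:61413421-61413450, plus strand, upstream: ctgtggcagctgtgCGgggcctcagaggtt
Skil, chr3:31110617-31110646, plus strand, intron: cacctcctgactgcCGgtgagattggagcc
Bmp4, chr14:46384230-46384259, minus strand, coding exon: ttggccatgatggcCGgggccataccttga
Id2, chr12:25097499-25097528, minus strand, upstream: caatcgaacactgtCGctgagtcgcaggag

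A pair of stretches before RefSeq gene starts is shown for the opposite reason, since no 5hmC read was counted in them in any of the 6 labeled libraries. They come from the RefSeq promoter table (GRCm38.p6), which held 5 of the 10 genes, Nodal, Tdgf1, Bmp4, Id2 and Id3. Promoters of the other 5 are not shown here. CGs are in capitals.
Tdgf1, chr9:110946159-110946408, minus strand, 7 CGs: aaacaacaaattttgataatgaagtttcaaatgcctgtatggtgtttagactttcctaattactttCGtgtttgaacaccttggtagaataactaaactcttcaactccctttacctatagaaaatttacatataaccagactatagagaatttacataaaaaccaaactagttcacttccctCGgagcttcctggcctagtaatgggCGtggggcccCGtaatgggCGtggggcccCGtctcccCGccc
Id2, chr12:25096254-25096342, minus strand, 4 CGs: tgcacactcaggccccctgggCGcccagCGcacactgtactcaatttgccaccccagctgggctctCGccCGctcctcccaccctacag
In uTOP-seq, the Tdgf1 stretch had 16, 28 and 18 reads in the 3 libraries and the Id2 stretch 15, 16 and 19 reads. Both stretches, picked for having no 5hmC read, were thus read as unmodified in every uTOP-seq library. The wider window from 1000 bp before to 500 bp after the RefSeq start of Id2 had 9 and 17 reads in the 500-ng libraries.

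Of the 10 loci, 5 had more 500-ng reads per CG than the median autosomal locus, which had 1.57. Lefty1 had the most, 5.38 ± 0.113 reads per CG (SD, n = 2), followed by Smad7 with 4.29 ± 0.0991, Lefty2 with 3.76 ± 0.0834, Nodal with 2.31 ± 0.255 and Skil with 2.04 ± 0.136. Below the median were Bmp4 with 1.49 ± 0.0517, Id3 with 1.44 ± 0.0102, Id2 with 1.07 ± 0.0522, Tdgf1 with 0.926 ± 0.126 and Id1 with 0.725 ± 0.154. In this order, the replicate values of neighbours overlapped for Nodal and Skil, while Bmp4 (1.53 and 1.45) and Id3 (1.43 and 1.44), and Tdgf1 (0.838 and 1.02) and Id1 (0.833 and 0.616), came close without overlap. Lefty1 stood at percentile 97.97 of all loci, Smad7 at percentile 93.6 and Lefty2 at 89.6, while Id1 stood at 23.2. Thus the antagonists and Smad7 led, and the BMP targets with the coreceptor gene came last.

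**Figure D1:**
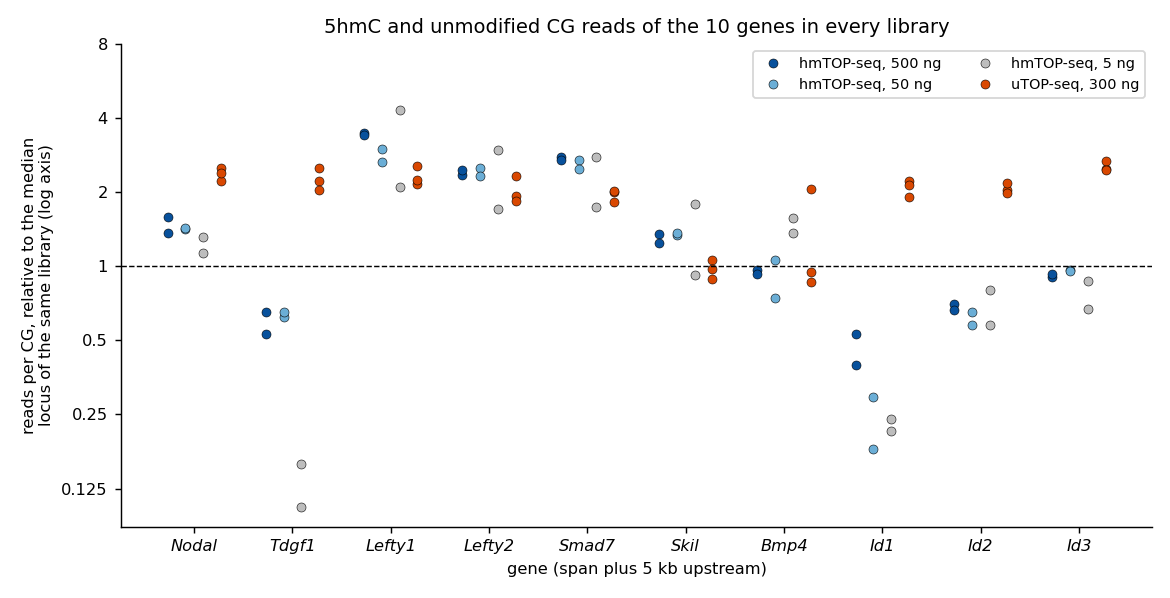
Reads per CG of each locus divided by the median locus of the same library (log axis), with 1 point per library. The 2 points at 500 ng of Lefty1, Lefty2 and Smad7 lie above 2, those of Tdgf1, Id1, Id2, Id3 and Bmp4 below 1, and the uTOP-seq points lie above 1.8 for 8 of the 10 genes.

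All 10 loci were richer in CGs than the median locus, with 15.8 to 40.6 CGs per kb against 12.0, and over all 20804 loci reads per CG rose with CG density (Spearman rho 0.640 at 500 ng and 0.768 in uTOP-seq, across loci that are not independent). Each locus was therefore also ranked among the loci of the same decile by CGs per kb. There Lefty1 stood at the 94.8th percentile, Smad7 at the 88.2nd and Lefty2 at the 71.8th, and these were the only 3 above the middle. Nodal moved from the 68.2nd percentile of all loci to the 35.7th and Skil from the 62.3rd to the 28.7th. Tdgf1 was lowest with 7.04, below Id1 with 11.7 and Id2 with 18.3.

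uTOP-seq gave another order. Reads of unmodified CGs were above the median locus (1.52 reads per CG) in 9 of the 10 loci, and 8 of them were in the top decile of all loci. Within the same decile by CGs per kb, Lefty1 stood at percentile 98.5, Tdgf1 at 97.7, Id3 at 97.1, Nodal at 96.6 and Lefty2 at 87.5, whereas Id1 (79.05), Id2 (75.8), Smad7 (66.6), Bmp4 (19.25) and Skil (8.005) were further below their ranks over all loci. Id3 had 3.87 uTOP-seq reads per CG, Nodal 3.60, Lefty1 3.55, Tdgf1 3.45, Id1 3.22, Id2 3.15, Lefty2 3.10 and Smad7 2.99. Skil, with 1.5, stood at the 49.0th percentile and Bmp4, with 2.07, at the 71.9th. Lefty1, Lefty2 and Smad7 were above the middle of their decile in both assays, whereas Tdgf1 and the 3 Id genes were above it in uTOP-seq and below it in hmTOP-seq. Above the median in both assays were 4 of the 10 loci, and 7634 of all 20804 loci.

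**Figure D2:**
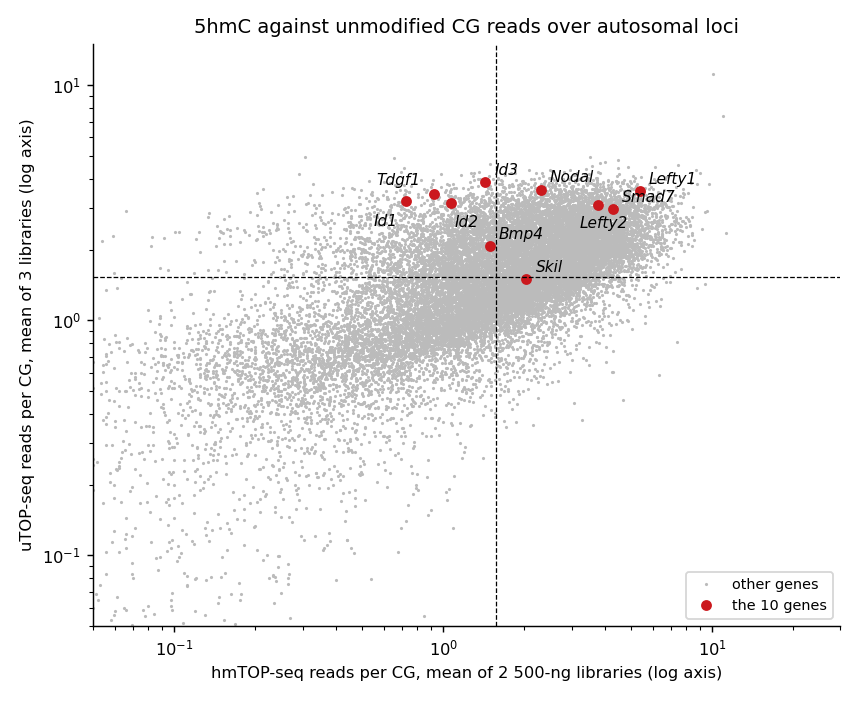
Each grey point is an autosomal protein-coding locus, with the mean hmTOP-seq reads per CG of the 500-ng libraries on the horizontal and the mean uTOP-seq reads per CG on the vertical axis (both log). Dashed lines mark the medians of 1.57 and 1.52. Lefty1, Smad7, Lefty2 and Nodal lie in the upper right, Tdgf1, Id1, Id2, Id3 and Bmp4 in the upper left, and Skil near the horizontal line.

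Nodal (ENSMUSG00000037171.6, chr10:61417972-61425338, plus strand) held 247 CGs. It had 2.49 and 2.13 reads per CG in the 500-ng libraries, 1.59 and 1.55 in the 50-ng libraries and 0.818 and 0.976 in the 5-ng libraries, and 4.03, 3.68 and 3.09 in uTOP-seq. Relative to the median locus of its library, the labeled values ran from 1.13 to 1.58, so that all 6 lay above 1. Beyond 500 bp after the start, 5hmC reads per CG were highest in coding exons, with 8.18 and 6.82 at 500 ng over 28 CGs. The introns there had 1.68 and 1.39 over 114 CGs. From 1000 bp before to 500 bp after the start, whatever the feature, 5hmC reads were few, with 0.651 and 0.419 per CG. In this window uTOP-seq counted 5.07, 4.07 and 3.65 per CG. The region 5 to 1 kb upstream, the side on which the leading CG shown above lies, had 2.77 and 2.56 reads per CG. That CG, at -4537 bp from the start, had 52 and 49 reads in the 500-ng libraries, 34 and 56 in the 50-ng libraries and 24 and 55 in the 5-ng libraries, and it was read in every labeled library.

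Tdgf1 (ENSMUSG00000032494.12, chr9:110939603-110946158, minus strand) held 197 CGs. It had 0.838 and 1.02 reads per CG in the 500-ng libraries, 0.701 and 0.706 in the 50-ng libraries and 0.0761 and 0.117 in the 5-ng libraries, against 4.04, 3.67 and 2.63 in uTOP-seq. The 5-ng values were 0.105 and 0.157 of the median locus, below the 0.532 to 0.654 of the other 4 labeled libraries. The longest run of CGs without a 500-ng read was 66 CGs, from -396 to 1823 bp from the start, where the 50-ng libraries had 1 read and the 5-ng libraries 0. uTOP-seq counted 2.995 reads per CG in this run and 3.67 outside of it, and the promoter stretch printed above lies within it. 5hmC reads came from both sides of this run, and the leading CGs lay in introns 4823 and 4367 bp after the start, with 43 and 32 reads over both 500-ng libraries. Exact copies of the 80 bases on either side occurred elsewhere in the genome for 7 of the 197 CGs, and without them the locus had 0.958 reads per CG.

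Lefty1 (ENSMUSG00000038793.8, chr1:180935022-180938400, plus strand) and Lefty2 (ENSMUSG00000066652.5, chr1:180893108-180899103, plus strand) lie on the same chromosome and strand, with 132 and 195 CGs in their loci. Lefty1 had 5.46 and 5.30 reads per CG in the 500-ng libraries, 2.97 and 3.22 in the 50-ng libraries and 1.52 and 3.21 in the 5-ng libraries. Lefty2 had 3.70 and 3.82 in the 500-ng libraries, 2.83 and 2.51 in the 50-ng libraries and 2.15 and 1.27 in the 5-ng libraries. Lefty1 was higher in 5 of the 6 libraries, the exception being a 5-ng library. At 500 ng the values of the 2 genes did not overlap, at 50 ng the lowest of Lefty1 exceeded the highest of Lefty2 by less than the replicates of either differed, and at 5 ng the replicates went opposite ways. The log2 ratio of Lefty1 over Lefty2 was 0.561 and 0.473 in the 500-ng libraries, 0.0691 and 0.358 in the 50-ng libraries and -0.504 and 1.34 in the 5-ng libraries, with a mean of 0.38 ± 0.61 (SD, n = 6). An exact two-sided sign-flip permutation test gave p = 0.1875, where 0.031 is the smallest p that 6 libraries allow, so that the difference did not pass the test.

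Lefty1 and Lefty2 are paralogs, and 21 CGs of each locus had 80 bases on 1 side that occur exactly in the other locus. A read that holds only such bases cannot be placed in 1 of the loci. Without all CGs that had such a copy anywhere in the genome, 21 in Lefty1 and 23 in Lefty2, the loci had 5.42 and 3.95 reads per CG at 500 ng. Lefty1 was then higher in 4 of the 6 labeled libraries. The mean log2 ratio was 0.37 ± 0.62 (SD, n = 6, exact sign-flip permutation p = 0.25). In uTOP-seq, Lefty1 had 4.61, 3.16 and 2.89 reads per CG and Lefty2 3.51, 3.43 and 2.37, which overlap, with a mean log2 ratio of 0.19 ± 0.27 and an exact permutation p of 0.5, where 3 libraries cannot go below 0.25.

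The genes differed in where their 5hmC reads lay. In Lefty2, the window from 1000 bp before to 500 bp after the start had 9.07 and 9.71 reads per CG in the 500-ng and 7.58 and 5.65 in the 50-ng libraries, while the 500-ng libraries had 3.58 and 3.11 in the rest of the gene. In Lefty1, the same window had 6.50 and 5.97 at 500 ng, and the rest of the gene had 5.71 and 5.82. Both windows were high among all genes, at the 99.0th percentile for Lefty2 and the 95.6th for Lefty1. In 500-bp bins, the first bin after the start of Lefty2 had 14.2 and 13.4 reads per CG, and it contains both CGs printed above, 243 and 295 bp after the start with 102 and 66 reads in total. Lefty1 had 10.1 and 9.79 in its first bin and a further maximum of 13.4 and 13.1 between 2500 and 2999 bp, where its 2 printed CGs lie with 71 and 70 reads. uTOP-seq reads were counted in the window at the start as well, with 5.07, 4.13 and 4.10 per CG in Lefty1 and 3.84, 4.32 and 2.39 in Lefty2.

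**Figure D3:**
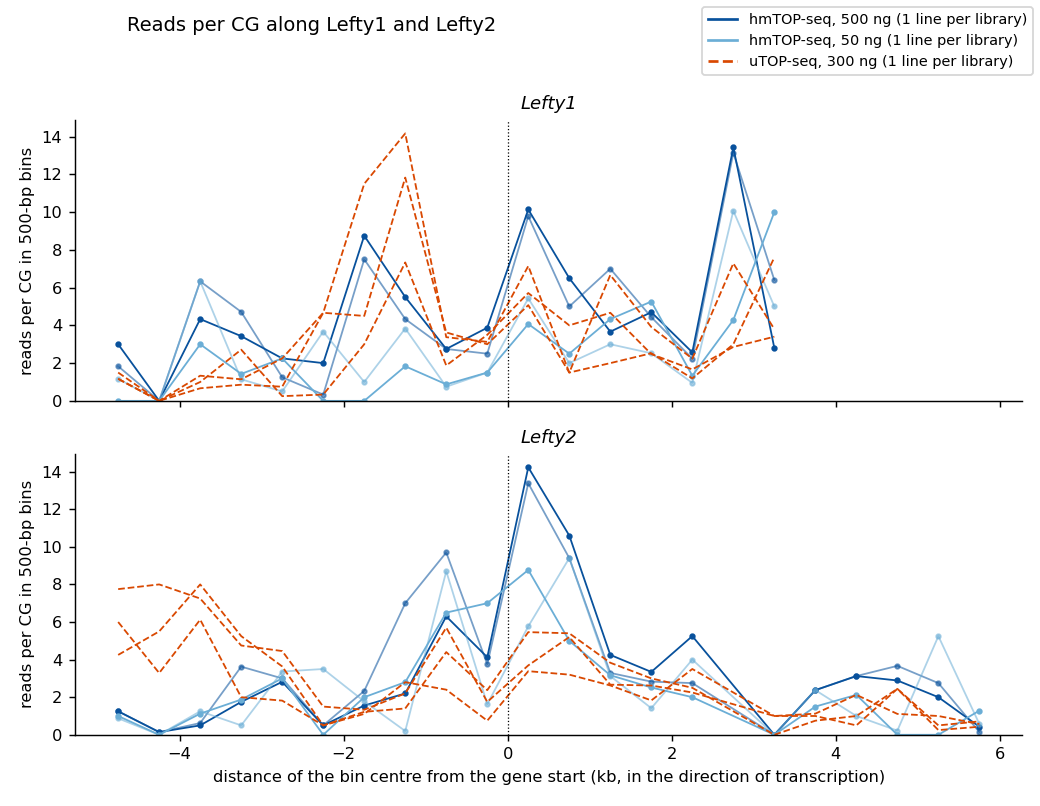
Reads per CG in 500-bp bins of Lefty1 (top) and Lefty2 (bottom) against the distance from the gene start in kb, with 1 line per library (solid lines for hmTOP-seq at 500 and 50 ng and dashed lines for uTOP-seq). Both 500-ng lines of Lefty2 peak in the first bin after the start near 14, and those of Lefty1 reach about 10 there and 13 near the end of the gene.

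Upstream, the assays separated at Lefty2. Between -4500 and -4001 bp from its start, both 500-ng libraries had 0.143 reads per CG over 14 CGs and uTOP-seq had 8.0, 5.50 and 3.29. At Lefty1, uTOP-seq was highest between -1500 and -1001 bp from the start, with 14.2, 11.8 and 7.33 reads per CG over 6 CGs, where the 500-ng libraries had 5.50 and 4.33. Of the CGs of Lefty1, 68.9% had a read in both 500-ng libraries, compared with 43.6% in Lefty2 and 25.5% in the median locus. A read in both 500-ng and in all 3 uTOP-seq libraries was counted at 47 of 132 CGs of Lefty1 and 42 of 195 of Lefty2. Reads of both assays were thus counted at the same CGs, with the strands of a CG merged. The share of such CGs over all loci is not given here. The other loci had such CGs too, from 9 of 138 in Id1 to 219 of 863 in Smad7.

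The loci nearest to Lefty1 in 500-ng reads per CG, uTOP-seq reads per CG and CGs per kb, each as log2 and scaled by its SD over all loci, were Rab25, Icam1 and Itgb7, at distances of 0.058 to 0.077 SD. For Lefty2 they were Def6, Fam57b and Cish, at 0.028 to 0.053 SD, and the 2 Lefty genes were 0.39 SD from each other.

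Smad7 (ENSMUSG00000025880.11, chr18:75367529-75395935, plus strand) and Skil (ENSMUSG00000027660.16, chr3:31095058-31122577, plus strand) encode inhibitors of SMAD signalling, the former acting at the receptor and the latter, SnoN, in the nucleus. Smad7 had 4.36 and 4.22 reads per CG in the 500-ng libraries, 3.03 and 2.69 in the 50-ng libraries and 1.26 and 2.05 in the 5-ng libraries over 863 CGs. Skil had 2.13 and 1.94 in the 500-ng libraries, 1.51 and 1.47 in the 50-ng libraries and 0.669 and 1.33 in the 5-ng libraries over 595 CGs. Relative to the median locus, the labeled libraries of Smad7 were between 1.74 and 2.77 and 5 of the 6 of Skil were above 1. In both genes few reads lay at the start. From 1000 bp before to 500 bp after it, Smad7 had 11 reads in 146 CGs at 500 ng in total and Skil 1 read in 212 CGs, whereas the rest of the gene had 6335 reads in 640 CGs and 2060 reads in 309 CGs. Per CG this was 131 times more in the rest of Smad7 (95% counting interval 73.4 to 263). For Skil, with a single read, the ratio was 1413 (253 to 55850), and at 50 ng its start had 0 reads, which makes it at least 343-fold lower on a floor of 3 reads over both libraries.

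The start of Skil was low in uTOP-seq too, with 0.811, 0.514 and 0.349 reads per CG, at the 11.0th percentile of all genes, while Smad7 had 2.22, 1.70 and 1.49 at the 39.5th. The longest run of CGs without a 500-ng read in any of the 10 loci was in Skil, 239 CGs from -964 to 1321 bp from the start, with 4 reads at 50 ng, 0 at 5 ng and 0.962 uTOP-seq reads per CG against 1.86 outside of it. At Smad7 the run was 40 CGs, from -508 to -80 bp. The CGs at the start of Skil thus had few reads of either assay. In contrast, the 2 leading CGs of Skil lay in an intron, 15573 and 15598 bp after the start, with 74 and 64 reads and 44 and 39 reads at 500 ng. In Smad7, the 3′ UTR had 8.07 and 6.84 reads per CG and the introns beyond 500 bp after the start 5.86 and 5.63. The Smad7 locus overlaps the noncoding gene Gm20544 on the other strand over 1757 bp, and strands are merged in the hmTOP-seq counts.

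Bmp4 (ENSMUSG00000021835.15, chr14:46383520-46390669, minus strand) had 1.53 and 1.45 reads per CG in the 500-ng libraries, 0.836 and 1.15 in the 50-ng libraries and 1.14 and 1.02 in the 5-ng libraries over 342 CGs. Its 5-ng values were 1.58 and 1.37 times the median locus, above the 0.744 to 1.06 of the other labeled libraries, without overlap. Beyond 500 bp after the start, coding exons were highest with 3.87 and 4.04 reads per CG at 500 ng over 54 CGs. Introns there had 1.10 and 1.04 over 208 CGs. The leading CG, printed above, lay in the coding exon 6424 bp after the start, with 29 and 11 reads at 500 ng and with 73 and 0 at 5 ng, so that 1 library supplied all its 5-ng reads. In uTOP-seq, the replicates had 3.73, 1.27 and 1.22 reads per CG. The first of them was 2.06 times its median locus and the others 0.866 and 0.946, and without it Bmp4 was below the median locus. The locus overlaps the antisense transcript Gm15222 over 1764 bp and the gene Gm15217 over 89 bp.

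Id1 (ENSMUSG00000042745.9, chr2:152736251-152737410, plus strand), Id2 (ENSMUSG00000020644.9, chr12:25093799-25097140, minus strand) and Id3 (ENSMUSG00000007872.3, chr4:136143497-136145755, plus strand) are short genes whose loci lie mostly upstream. Id1 had 0.833 and 0.616 reads per CG in the 500-ng libraries, 0.203 and 0.319 in the 50-ng libraries and 0.174 and 0.159 in the 5-ng libraries. Id2 had 1.11 and 1.04, 0.735 and 0.622, and 0.419 and 0.593 in the same order, and Id3 1.43 and 1.44, 1.09 and 1.03, and 0.486 and 0.649. All 18 values were below the median locus of their library, and those of Id1 were the lowest of the 3 genes in every library. uTOP-seq went the other way, with 2.47 to 4.03 reads per CG for Id1, 2.56 to 3.69 for Id2 and 3.17 to 4.51 for Id3, which was 1.92 to 2.675 times the median locus. In the rest of the gene behind the start window, Id3 stood at percentile 99.7 of all genes in uTOP-seq and Id1 at percentile 98.7, while in hmTOP-seq at 500 ng they stood at percentiles 28.05 and 15.7.

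In Id2, the level at the start depended on which start was used, since the RefSeq start lies 1048 bp downstream of that in GENCODE M21. Around the GENCODE start, Id2 had 2.67 and 3.37 reads per CG at 500 ng, and the printed CG at -374 bp from it had 13 and 17. Around the RefSeq start it had 0.120 and 0.227, and the longest run of CGs without a 500-ng read, 42 CGs from 720 to 1422 bp after the GENCODE start, spans it, with 15 reads at 50 ng, 0 at 5 ng, and 4.595 uTOP-seq reads per CG against 2.95 outside. For Id3, whose RefSeq start lies 325 bp downstream, the values were 1.85 and 1.76 around the GENCODE and 1.17 and 0.973 around the RefSeq start. The leading CGs of Id3, at -2312 and -2702 bp from the start, and of Id1, at -3213 and -1515 bp, were all upstream.

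**Figure D4:**
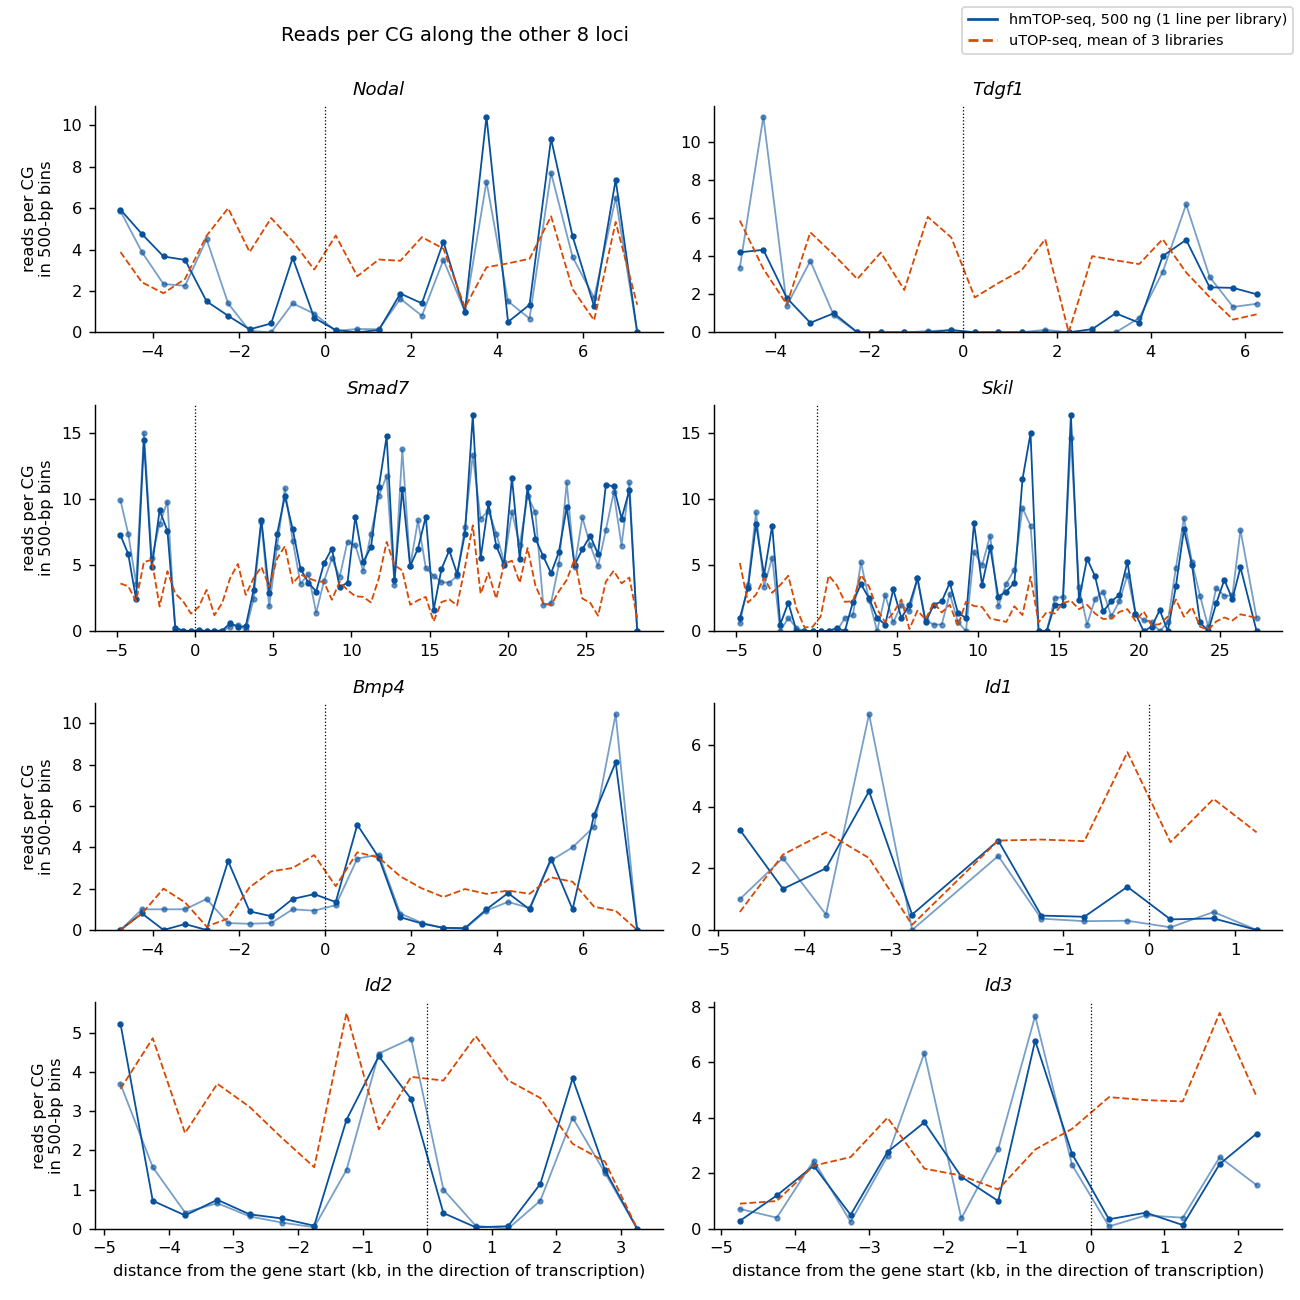
Reads per CG in 500-bp bins along the other 8 loci against the distance from the GENCODE gene start in kb (blue, 1 line per 500-ng library, orange dashed, mean of the uTOP-seq libraries). At the dotted start line, the 500-ng lines of Tdgf1, Smad7 and Skil are at or near 0, and the uTOP-seq line lies above them. In the bins from 1000 bp before to 500 bp after the start, these 500-ng lines reach up to 0.118 reads per CG.

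The start was then compared with the rest of each gene over the 500-ng and 50-ng libraries by edgeR with the library as a block. Of the 10 genes, 3 were higher at the start at an adjusted p below 0.05 and 4 were lower, where 15.5% of 17670 genes tested were called higher and 63.3% lower. The 3 called higher were Lefty2 (log2 fold change 1.5, SE 0.199, edgeR adjusted p = 0.000156), Id2 (1.67, SE 0.283, edgeR adjusted p = 0.000665) and Id3 (0.91, SE 0.285, edgeR adjusted p = 0.0171). Lower were Nodal (-2.17, SE 0.263), Tdgf1, Smad7 and Skil, with edgeR adjusted p between 4.1e-06 and 9.42e-05. For the last 3, the fitted value rests on a start with almost no reads, so that the counts given above describe them. Lefty1 (-0.17, SE 0.223), Bmp4 (-0.54, SE 0.235) and Id1 (-1.17, SE 0.707) were not called, with edgeR adjusted p of 0.494, 0.0648 and 0.16.

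With the RefSeq start, an alternative chosen after the data were seen, Id2 turned to -2.91 (edgeR adjusted p = 0.000345) and Id3 to -0.25 (edgeR adjusted p = 0.47), so that of the 3 genes called higher only Lefty2 remained. The RefSeq and GENCODE starts of Nodal, Tdgf1 and Bmp4 coincide. For Lefty2, Lefty1, Skil and Id1 no difference between the starts was recorded, which also holds for any gene without a RefSeq start. In a window of 250 bp on each side of the GENCODE start, Id3 turned to -0.04 and the calls of Id2 and Nodal were lost.

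**Figure D5:**
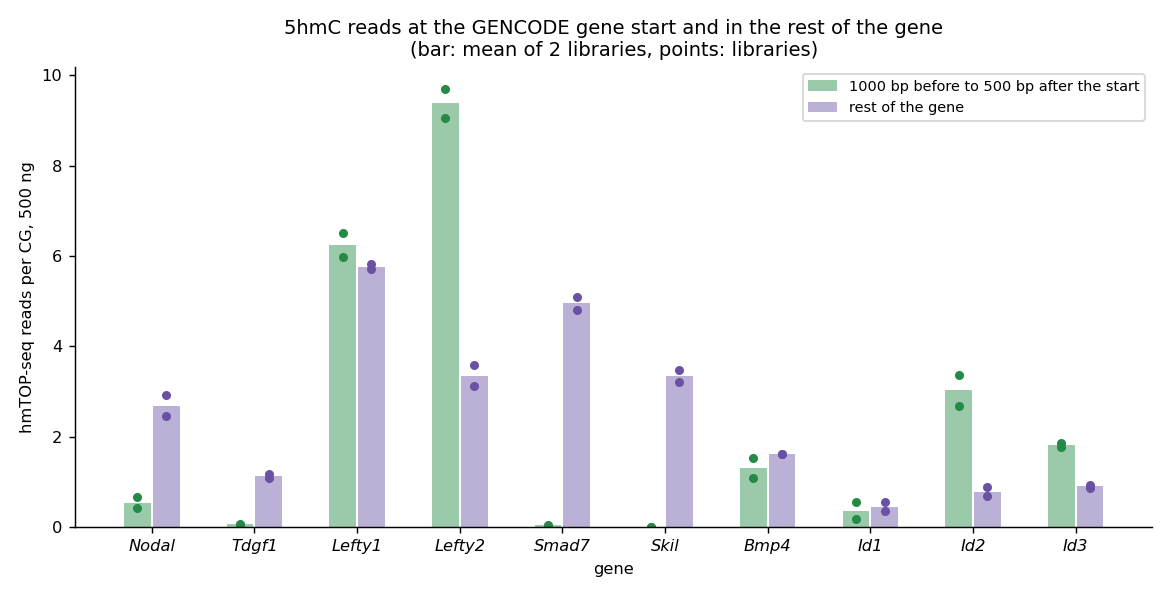
hmTOP-seq reads per CG at 500 ng from 1000 bp before to 500 bp after the GENCODE gene start (green) and in the rest of the gene (violet), with bars for the mean of 2 libraries and points for the libraries. Lefty2, Id2 and Id3 are higher at the start, Nodal, Tdgf1, Smad7 and Skil are higher in the rest, and the points of Id1 overlap.

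Whether the amount of DNA changed the picture was tested on reads per locus with edgeR. Of the 10 loci, 0 were called between 50 and 500 ng and 0 between 5 and 500 ng, where 0% of 19262 and 0% of 19071 loci tested were called by edgeR. At an unadjusted p under 0.05 there were 2214 and 2208 loci. DESeq2 called 87 of the 10299 loci to which it gave an adjusted p at 50 ng, and 1035 of 19071 at 5 ng. Among the 10 loci, Lefty1 at 50 ng (log2 fold change -0.27, SE 0.112, edgeR adjusted p = 0.404) and Id1 at 50 ng (-0.94, SE 0.352, edgeR adjusted p = 0.379) were under an unadjusted 0.05, and without the second 50-ng replicate both passed the threshold (-0.36 and -1.34). At 50 ng, DESeq2 gave an adjusted p for Lefty1, Lefty2, Smad7 and Skil and called 0 of them. At 5 ng these were Tdgf1 (-2.13, SE 0.476) and Bmp4 (0.67, SE 0.167), both with an edgeR adjusted p of 0.408, and both were called by DESeq2 (adjusted p = 0.00505 and 0.016). The 50-ng fold changes of the other 8 loci were between -0.13 and 0.13. The count at 5 ng also turns on single libraries, since leaving out either 5-ng replicate, which leaves the spread to the 500-ng pair alone, gave 11076 and 10803 calls, and at 50 ng 2376 and 2568. Without the first 5-ng replicate the log2 fold changes of Lefty1, Lefty2 and Skil at 5 ng were 0.37, -0.45 and 0.51, and without the second they were -0.67, 0.35 and -0.45, each past the threshold in opposite directions. Tdgf1 (-1.87 and -2.44), Id1 (-1.06 and -0.90) and Bmp4 (0.56 and 0.77) passed the threshold in the same direction both times. Smad7 had 0.05 without the first and -0.62, past the threshold, without the second, and Nodal passed it only without the second (-0.34).

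A list of 27 other genes of Nodal and activin signalling and a list of 23 other genes of BMP signalling were described in the same way. Above the median locus at 500 ng were 19 of 27 and 13 of 23, with list medians of 2.31 and 1.70 reads per CG against 1.57 over all loci. The lists were also richer in CGs, with list medians of 18.6 and 18.1 CGs per kb against 12.0 over all loci. They were not ranked within deciles by CGs per kb. In the Nodal and activin list, Ski, a relative of Skil, had the most with 5.05 and 4.73 reads per CG, followed by the receptor genes Acvr2b with 3.75 and 3.65 and Acvr1b with 3.33 and 3.08. Acvr2a, also a receptor gene, had the fewest with 0.476 and 0.418, before Foxh1 with 0.824 and 0.782 and the ubiquitin ligase gene Smurf2 with 0.882 and 0.959. In the BMP list, Smad6, the BMP counterpart of Smad7, led with 3.82 and 3.60, followed by the ligand gene Bmp7 with 3.45 and 3.37 and the target Tbx3 with 3.30 and 3.40. The BMP antagonist gene Nog had the fewest with 0.327 and 0.363, before Id4 with 0.669 and 0.700 and Bmp5 with 0.705 and 0.676. Hence Lefty1 exceeded each of the 50 genes, and Id4 was low beside Id1, Id2 and Id3.

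At the start, 2 of 27 genes of the first list (Cer1 and Acvr1c, log2 fold changes 1.15 and 0.61) were called higher than in the rest. In the second list 0 of 23 were called higher, and 20 and 21 genes of the lists were called lower. Of all genes tested, 15.5% were called higher and 63.3% lower. Median log2 fold changes were -2.26 and -2.86 in the lists against -1.74 over all genes. Cer1, like the Lefty genes, encodes a secreted antagonist of Nodal, and Acvr1c encodes a receptor. Of the Lefty genes, Lefty2 was called higher at the start and Lefty1 was not. In the comparisons of inputs, 0 of the 50 genes were called by edgeR. The smallest adjusted p values in the first list were those of Drap1 and Acvr2b at 50 ng (-0.56 and -0.23, both edgeR adjusted p = 0.298) and of Pcsk6 at 5 ng (0.26, edgeR adjusted p = 0.408), and in the second those of Bmpr2 at 50 ng (0.27, edgeR adjusted p = 0.386) and of Bmp2 and Tbx3 at 5 ng (0.63 and -0.31, both edgeR adjusted p = 0.408). Unadjusted p values were under 0.05 for 7 of the 50 genes at 50 ng and 6 at 5 ng. Over all loci, they were under 0.05 for 2214 of 19262 at 50 ng and 2208 of 19071 at 5 ng.

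A pair of motifs was searched on both strands of the 300-base RefSeq promoters. TGTGNATT, bound by FOXH1, occurred in 3.60% of 32851 promoters and in 0 of the 5 available for Nodal, Tdgf1, Bmp4, Id2 and Id3. GGCGCC, described for BMP-activated SMADs, occurred in 11.9% and, of the 5, in that of Id2, once, inside the stretch printed above. A match is a run of letters and not a measured site.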

How the data were processed

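The authors mapped hmTOP-seq and uTOP-seq reads to mm10, removed duplicates by start and length, assigned reads to CG sites and deposited read counts per library, which were used as deposited, without normalization by the authors. Positions were counted from 0 in the files and 1 was added, after which all 3256 CGs of the 10 loci lay on a CG of GRCm38. Reads per CG were summed over loci, and counts were tested with the quasi-likelihood test of edgeR 4.0.16 (R 4.3.3, TMM, library sizes from all reads, a mean of at least 10 reads, threshold 0.05 after Benjamini-Hochberg adjustment over all loci). DESeq2 1.42.0 was an alternative. The start of a gene and the rest were compared with the numbers of CGs as offsets, with at least 5 CGs in each. Other values were calculated with Python 3.11.15, numpy 2.4.6 and scipy 1.17.1. Groups were the DNA input and assay in the library titles.

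Libraries of the same replicate number did not deviate together (r = 0.0349 between 50 and 500 ng and -0.0146 between 5 and 500 ng), so that the number was not taken as a pairing. Each test was also run on simulated data. Of 200 simulated 2-fold changes, edgeR recovered 85.5% between 50 and 500 ng and 40.5% between 5 and 500 ng. Between the start and the rest it recovered 50%, with a spread that was set and not estimated from the data. A gene that was not called can therefore still differ. The gene lists, windows and tests were chosen with earlier results of these data known. Named were the 10 genes, of each list the 3 loci with the most and the fewest reads per CG and those with the smallest adjusted p, the 3 loci nearest to each Lefty gene, and the 2 leading CGs of each locus.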

Additional observations from a re-analysis of the deposited data

Results flagged for a closer look

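The ratio of Lefty1 to Lefty2 changed sign between DNA inputs in 2 parts of the loci, with all libraries of one input on one side of 0 and all of the other on the opposite side. From 1000 bp before to 500 bp after the start, the mean log2 ratio of reads per CG was -0.59 at 500 ng and -1.22 at 50 ng, against 0.56 at 5 ng. In the 5 kb upstream it was 0.46 at 500 ng and -0.73 at 50 ng. Within Lefty1, the log2 ratio of the start over the rest of the gene averaged 0.11 in the 500-ng, -0.48 in the 50-ng and 2.44 in the 5-ng libraries. Each mean is of 2 technical replicates, and these differences between inputs were not tested. The 5-ng libraries also had the lowest correlation between replicates over the CGs of Lefty1 (Pearson r = 0.155, against 0.844 at 500 ng), and its part in the change of sign was not tested.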

How the results depend on the processing

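Between 50 and 500 ng, the 0 called loci became 87 with DESeq2 (of 10299 with an adjusted p), 1 in the gene span only, and 132 with the replicate block. Leaving out single replicates gave 1 to 2568. Between 5 and 500 ng, the 0 became 1035 with DESeq2, 1 with the replicate block, and 1 to 11076 without single replicates. The numbers pair no samples, so that the block only shows how counts move. Genes called higher at the start numbered 2737 and 1757 with all 6 labeled libraries, and of the 10 genes 3 were called higher, but 1 with a 250-bp window and 1 with the RefSeq start (chosen after seeing the data). Log2 fold changes that were called changed sign for Id2 (-2.91) and Id3 (-0.25) with the RefSeq start and for Id3 (-0.0378) with the 250-bp window. Without the first 5-ng replicate, Lefty1 at 5 ng turned to 0.37, Lefty2 to -0.45 and Smad7 to 0.0538 (Skil 0.51, Id2 0.26), and without the second, Skil turned to -0.45 and Id2 to -0.20 (Lefty1 -0.67, Lefty2 0.35, Smad7 -0.62). Uncalled log2 fold changes near 0 changed sign without being called. In the gene span only, these were Id2 (0.86), Id3 (-0.00436) and Lefty2 (-0.14) at 50 ng and Id2 (-0.58), Lefty2 (-0.23) and Skil (-0.00971) at 5 ng. Without the first 500-ng replicate they were Lefty2 (-0.00398), Nodal (0.075, but -0.12 without the second) and Tdgf1 (-0.0165, but 0.29 without the second) at 50 ng and Lefty2 (-0.0341) at 5 ng, without the first 50-ng replicate Bmp4 (0.18, but -0.34 without the second) and Lefty2 (-0.0225, but 0.0853 without the second), and with the replicate block Lefty2 at 5 ng (-0.0468). Lefty1 at the start turned to 0.11 with the 500-ng libraries only, 0.64 with all 6 libraries and 0.24 with the 250-bp window. The cause of these changes was not tested. The call of Id3 was also lost with all 6 libraries and without either 500-ng replicate, and the call of Nodal with the 250-bp window. Of the 10 loci, 5 were above the median at 500 ng but 3 within the same decile by CGs per kb. The mean log2 ratio of Lefty1 over Lefty2 stayed between 0.07 and 0.56 with exact permutation p from 0.0625 to 0.844. Alternatives with fewer than 6 libraries allow no p below 0.0625, so that they could not pass 0.05 whatever the ratios. Nothing is concluded from their p-values. Of 288 alternatives for single genes, 244 kept their direction and their side of the threshold and 24 changed sign. Alternatives without an adjusted p, as for some loci with DESeq2 at 50 ng, were counted there as not called. The 5-ng libraries had 14884939 and 15277636 reads on 1227372 and 1196131 CGs, against 6903098 and 7220651 CGs at 500 ng, and the part of depth in their spread was not tested.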

Other observations

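The following genes of the lists were picked after their values were seen. Foxh1, Tgif1 and Gdf3, which encode a cofactor of SMAD2 and SMAD3, a corepressor and a ligand, had 3.36, 3.81 and 3.44 uTOP-seq reads per CG and stood at the 97.5th, 99.3rd and 97.9th percentile of all loci, while at 500 ng Foxh1 and Tgif1 had 0.803 and 1.03 hmTOP-seq reads per CG, below the median of 1.57, and Gdf3 had 1.97. Foxh1 and Tgif1 thus had the combination seen at Tdgf1 and the Id genes, and Gdf3 did not. In the top decile by uTOP-seq were 9 of 27 genes of the Nodal and activin list and 3 of 23 of the BMP list, beside 2080 of 20804 loci. These counts were not adjusted for CGs per kb, whose list medians exceeded that of all loci.

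Within the loci, the rank correlation across CGs between 500-ng and uTOP-seq reads was highest in Smad7 (rho 0.469 over 863 CGs), Lefty1 (0.466 over 132) and Skil (0.401 over 595) and lowest in Id3 (0.097 over 208) and Id1 (0.172 over 138). The CGs of a locus share libraries and base composition, and the values are given as a description.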
